A study of Mus musculus with 2 samples.

Results

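The genes described here are 9 genes of the MHC class II presentation pathway, chosen by symbol with earlier results of these data known: H2-Aa, H2-Ab1, H2-Eb1, H2-DMa, H2-Oa, H2-Ob, Cd74, Ciita and Ctss. They are 9 of the 19938 genes that carry a name of their own on the array, and each was read by a single probe set. The cells were plasmacytoid dendritic cells (pDCs), known as strong producers of type I interferon, and their RNA was read on Affymetrix Mouse Gene 1.0 ST arrays. One array held RNA of Runx2-/- pDCs and the other RNA of wild-type pDCs. Both samples came from the bone marrow of chimeras reconstituted with fetal liver cells of that genotype 2 months earlier, and both were sorted as CD11b- cells carrying BST2 and B220. The number of mice behind each sample, their strain, age and sex, and the share of blood cells the hosts had kept are not stated. With 1 array per genotype no difference has a replicate check, so all comparisons below are descriptions of these arrays with no test.

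MHC class II molecules are pairs of an alpha and a beta chain that carry peptides from endosomes to the cell surface, where CD4 T cells read them. The invariant chain CD74 fills the groove of a newly made molecule, proteases such as cathepsin S trim it to a fragment, and the DM molecule then exchanges that fragment for peptides, while the DO molecule restrains DM. Transcription of most of these genes depends on CIITA, a coactivator that binds no DNA itself and is recruited by RFX, CREB and NF-Y proteins seated on the X and Y boxes of the promoters. pDCs carry class II molecules at a lower level than conventional dendritic cells and use them less for priming T cells.

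These boxes can be read in the promoters of members that differed in opposite directions, which is why the 4 stretches below are shown. Promoter windows from RefSeq, running from 250 bases before to 50 after the start site on build GRCm38.p6, were at hand for 6 of the 9 genes. In 4 of them, H2-Aa, H2-Eb1, H2-Oa and H2-Ob, the letters GCAAC of the X box stood upstream of the letters GATTGG of the Y box on the coding strand. The capitals mark these letters.
H2-Aa (chr17:34287855-34287924, minus strand): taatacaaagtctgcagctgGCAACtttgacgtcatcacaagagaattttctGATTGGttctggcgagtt
H2-Eb1 (chr17:34305756-34305824, plus strand): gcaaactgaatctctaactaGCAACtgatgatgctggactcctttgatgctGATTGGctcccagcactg
H2-Oa (chr17:34092283-34092352, plus strand): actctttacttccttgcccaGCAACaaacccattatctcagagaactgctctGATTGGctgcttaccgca
H2-Ob (chr17:34238798-34238864, plus strand): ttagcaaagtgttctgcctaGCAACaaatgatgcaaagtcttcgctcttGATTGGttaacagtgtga
The gap between the 2 capitalised stretches was 27 bases in H2-Aa, 26 in H2-Eb1, 27 in H2-Oa and 24 in H2-Ob, and GATTGG began between 44 and 60 bases before the start site. This order of letters with a gap of 10 to 35 bases, a search chosen after the sequences had been read, was found on either strand of 0.432% of all 32851 promoter windows. The longer X box letters TAGNAAC were found in H2-Eb1 and H2-Ob and in 11.4% of all windows, and GATTGG alone was found in those 4 genes and H2-DMa and in 16.1% of all windows. TAGNAAC overlaps GCAAC where both are present. The Runx site letters TGTGGT were found, on either strand, in H2-DMa alone of the 6 genes and in 16.8% of all windows, and an ETS-IRF composite element in none of the 6 and in 2.72%. Each match describes letters in a window, and says nothing of whether a factor was bound.

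All 11 measured pDC marker genes passed the brightness filter, 7 were below 0, 0 were 2-fold apart and their median difference was -0.044. Siglech, a pDC surface receptor, was at 13.55 in Runx2-deficient and 13.48 in wild-type cells on the log2 intensity scale, and the pDC transcription factor gene Tcf4 was at 13.11 in Runx2-deficient and 13.16 in wild-type cells. The furthest from 0 were Irf7, an interferon regulator gene, at -0.68, Pacsin1 at -0.56 and Ly6d at -0.46, and Bst2, which encodes a protein of the sort gate, differed by -0.31. Sums of genes listed for other cell types were unequal between the arrays and went both ways. For 9 T cell genes the sum was 11010 units on the Runx2-deficient array and 7166 on the wild-type array, with 5 of the 9 below 0. For 7 NK cell genes it was 845 on the Runx2-deficient and 568 on the wild-type array, with 6 below the brightness filter. For 7 plasma cell genes it was 11387 on the Runx2-deficient and 11186 on the wild-type array, with 2 below 0. The summed intensity of 15 neutrophil and granulocyte precursor genes was 2889 units on the Runx2-deficient array and 18748 on the wild-type array, with 12 of the 15 at least 2-fold lower. Sums of 10 erythroid genes were 6364 units on the Runx2-deficient array and 8021 on the wild-type array, with 5 at least 2-fold lower, or 1540 units on the Runx2-deficient and 4459 on the wild-type array without the transferrin receptor gene Tfrc, which was higher. Sums of 7 platelet genes were 2452 units on the Runx2-deficient array and 7545 on the wild-type array, with 2 at least 2-fold lower, and most of that gap was the chemokine gene Ppbp, without which they were 2296 on the Runx2-deficient and 2707 on the wild-type array. The 3 measured Y-linked genes, which mark male cells and not a cell type, summed to 158 units on the Runx2-deficient array and 1428 on the wild-type array. All 3 were at least 2-fold lower. A difference in the share of male cells cannot be told apart from one of genotype on these arrays. The part of these differences in the class II values was not tested.

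Of the 9 class II genes, 7 were lower and 2 higher in Runx2-deficient than in wild-type pDCs. The 7 lower ones encode the classical chains, the invariant chain, the DM alpha chain, cathepsin S and CIITA, and the 2 higher ones encode the chains of DO. The median of the 9 differences was -0.34 on the log2 scale, against -0.014 over the 10337 named genes that passed a brightness filter, with quartiles of -0.19 and 0.16. The filter keeps a gene whose log2 intensity reaches the array's own median over named genes, 7.54 for the Runx2-deficient array or 7.61 for the wild-type array, and all 9 exceeded both levels. Across the filtered genes 51.9% were below 0. One of the 9, H2-Ab1, was at least 2-fold lower, where 1.17% of filtered genes were, and 0 of the 9 were at least 2-fold higher, where 0.793% were. At 1.5-fold, 2 of the 9 were lower, H2-Ab1 and Ciita, against 3.86% of filtered genes, and 1 was higher, H2-Ob, against 3.02%. In such bulk samples fewer cells expressing a gene and less of its RNA per cell cannot be told apart.

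**Figure D1:**
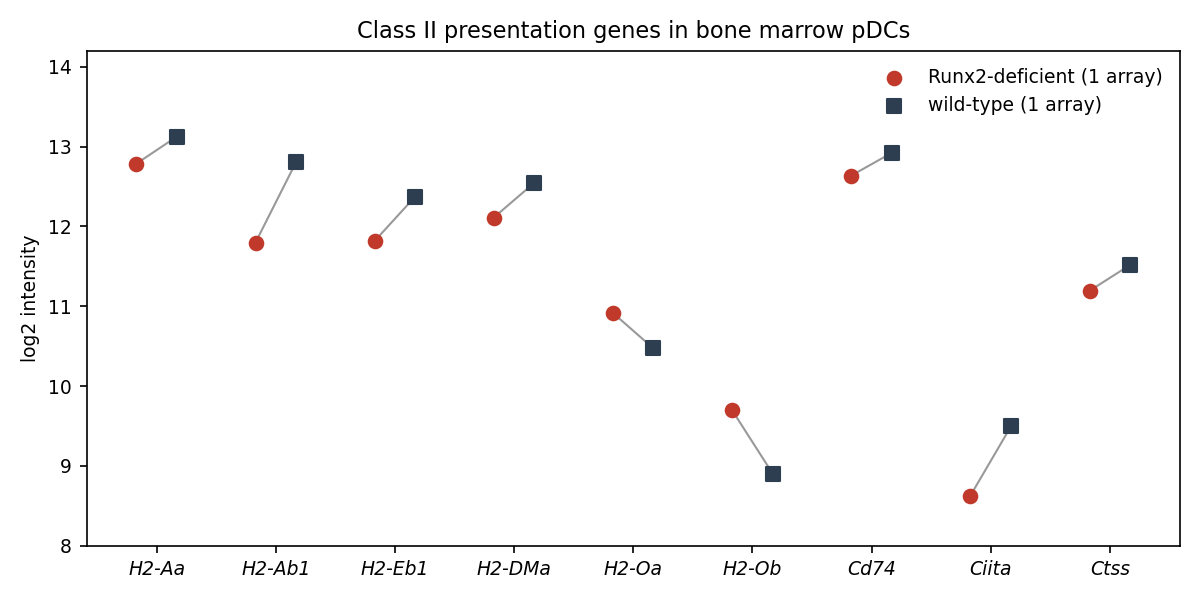
Log2 intensity (vertical axis) of the 9 class II presentation genes (horizontal axis) in Runx2-deficient pDCs (red circles) and wild-type pDCs (dark squares), 1 array each, so there are no error bars. The circle lies below the square in 7 genes and above it in H2-Oa and H2-Ob.

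The 3 classical chain genes among the 9 were lower in Runx2-deficient pDCs, and by unequal amounts. H2-Ab1, the beta chain of the I-A molecule, had 3559 intensity units in Runx2-deficient cells and 7149 in wild-type cells, a log2 difference of -1.01. H2-Aa, the alpha chain that pairs with it, had 7059 units in Runx2-deficient cells and 8932 in wild-type cells, a difference of -0.34. The difference of the beta chain minus that of its partner was -0.67 on the log2 scale, a contrast that does not depend on how the arrays are scaled to each other by a constant. H2-Eb1, the beta chain of the I-E molecule, had 3610 units in Runx2-deficient cells and 5303 in wild-type cells, a difference of -0.55. H2-Ab1 was close to the 2-fold line, at 2.01-fold lower, and its difference was -0.93 after each array was centred on its own median. Of the filtered named genes, 1.17% were at least as far below 0 as H2-Ab1, 4.50% as far as H2-Eb1 and 12.4% as far as H2-Aa. Bright genes spread less on these arrays: of the 277 named genes with a mean log2 intensity of 12 or more, a level chosen after the values were seen, the quartiles of the difference were -0.17 and 0.094. H2-Ab1 was 1 of 2 of these genes at least 2-fold lower, the other being Gapt, an adaptor gene of B cells and myeloid cells, and H2-Eb1 was 1 of 8 at or below its own difference.

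The remaining measured chain genes were not members and did not follow this direction. H2-Eb2, a gene related to H2-Eb1, had 466 units in Runx2-deficient cells and 195 in wild-type cells, a difference of 1.26 and a fold of 2.39. Its wild-type level of 7.606 in log2 units lay just under the brightness level of 7.615 on that array, so the fold rests on a dim denominator. H2-Ea, the I-E alpha chain gene, is annotated as a transcribed pseudogene in the reference mouse genome and is not expressed in mice of several H2 haplotypes. It had 123 units on both arrays, which is below the filter, with a difference of -0.0029.

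The peptide exchange genes split by complex. H2-DMa, the DM alpha chain, had 4423 units in Runx2-deficient cells and 5980 in wild-type cells, a log2 difference of -0.44. H2-Oa, the DO alpha chain, had 1931 units in Runx2-deficient cells and 1419 in wild-type cells, a difference of 0.45. H2-Ob, the DO beta chain, had 830 units in Runx2-deficient cells and 479 in wild-type cells, a difference of 0.79 and a fold of 1.73. Both DO chains were thus higher while the DM chain was lower. The signal of H2-Oa relative to that of H2-DMa was 1.84-fold higher, and the signal of H2-Ob relative to H2-DMa 2.34-fold higher, in Runx2-deficient than in wild-type cells. H2-DMb1 and H2-DMb2, the DM beta chains, have no probe set of their own in the annotation used and were not analysed here. Differences at least as far above 0 as that of H2-Ob were seen in 1.39% of filtered genes, and as that of H2-Oa in 5.71%.

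**Figure D2:**
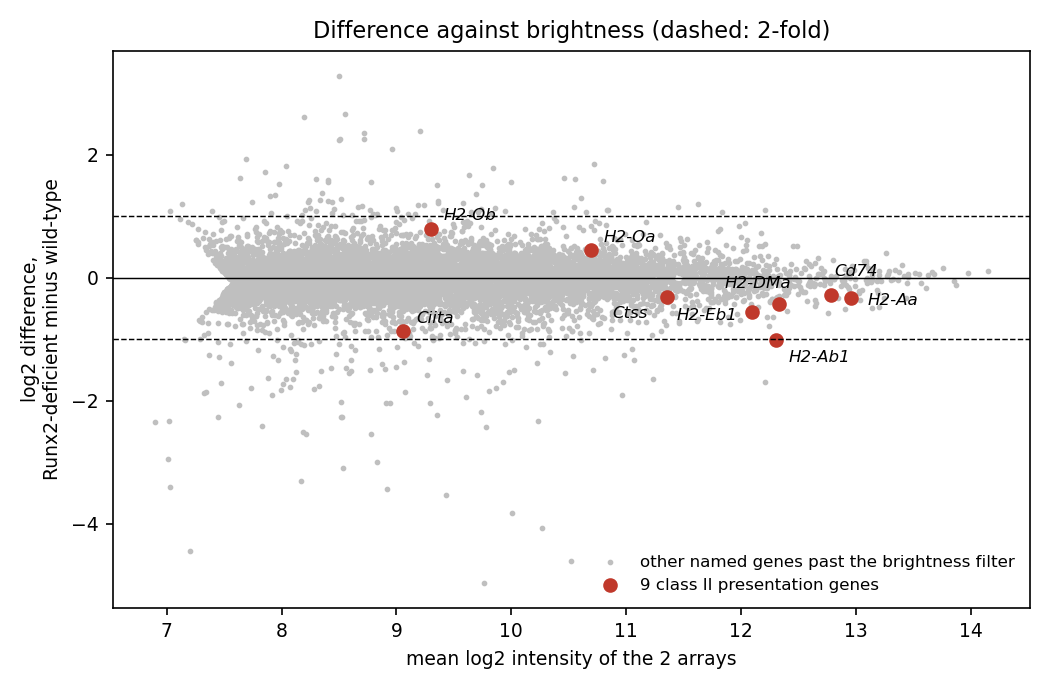
Log2 difference, Runx2-deficient minus wild-type (vertical axis), against the mean log2 intensity of the 2 arrays (horizontal axis) for the named genes past the brightness filter (grey points) and the 9 class II genes (red points), with dashed lines at 2-fold. H2-Ab1 lies on the lower line at -1.01, and H2-Ob and H2-Oa lie above 0.

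The invariant chain and its protease were slightly lower. Cd74, the invariant chain gene, had 6366 units in Runx2-deficient cells and 7756 in wild-type cells, a difference of -0.28, or 17.9% lower. Ctss, the cathepsin S gene, whose product cuts the invariant chain in bone marrow derived antigen presenting cells, had 2341 units in Runx2-deficient cells and 2929 in wild-type cells, a difference of -0.32, or 20.1% lower. Of filtered genes, 16.6% were at least as far below 0 as Cd74 and 13.5% as far as Ctss.

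Of 13 measured genes for invariant chain processing and endosomal proteolysis, Cd74 and Ctss included, 9 were below 0, the list's median was -0.15, and 1 was at least 2-fold apart. That gene was Ctse, encoding cathepsin E, an endosomal aspartic protease, with 1359 units in Runx2-deficient cells and 4240 in wild-type cells, a 3.12-fold lower signal. Ctsz, a carboxypeptidase gene, differed by -0.35. Cathepsin L, which does the work of cathepsin S in thymic epithelium, had a difference of 0.038 for its gene Ctsl.

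Ciita was the second lowest of the 9 genes. The gene had 395 units in Runx2-deficient cells and 721 in wild-type cells, a log2 difference of -0.87, or 1.82-fold lower. Differences at least as far below 0 were seen in 1.60% of filtered genes. The difference of Ciita minus that of H2-Ab1 was 0.14 on the log2 scale, and minus that of Cd74, which depends on CIITA too, it was -0.58. A single probe set covers Ciita, so transcripts from its alternative promoters, whose use differs between cell types, were not read apart.

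The DNA-binding partners of CIITA were all under 1.5-fold apart. Creb1, encoding CREB, had the largest difference, 0.28, with 1791 units in Runx2-deficient cells and 1477 in wild-type cells. Rfx5 differed by 0.23, Rfxap by 0.035, Rfxank by -0.031, Nfya by 0.058, Nfyb by 0.017 and Nfyc by -0.0052. Creb1 and Rfx5 lay above the upper quartile of the filtered genes. The 3 Rfx genes encode the complex that sits on the X box, and the 3 Nfy genes NF-Y, which sits on the Y box. Of the 13 measured genes for CIITA, its partners and cofactors, 0 were 2-fold apart and the median was 0.017. The 2 that followed Ciita in size, both higher, were Nlrc5 and Kat2b. Nlrc5, the CIITA relative that activates class I genes, had 2649 units in Runx2-deficient cells and 1822 in wild-type cells, a difference of 0.54, and all 19 probe sets named for it were above 0, from 0.13 to 1.13. Kat2b, an acetyltransferase gene, differed by 0.47.

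Genes known to regulate Ciita in some cell types were under 2-fold apart, with more of them below 0 than above. Of 14 measured genes, 10 were below 0, where 51.9% of filtered genes were, 0 were 2-fold apart, and the median was -0.20. The 14 include 3 genes below the filter on both arrays. Spib, an ETS factor gene of pDCs and B cells, had 3195 units in Runx2-deficient cells and 5165 in wild-type cells, a difference of -0.69. Spi1, encoding the ETS factor PU.1, differed by -0.49, and Zbtb32, a repressor gene, by -0.29. Irf8, a dendritic cell factor gene, and Tcf4 differed by 0.033 and -0.044.

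Genes for the removal and retention of class II molecules at the cell surface went both ways, with 1 of 7 at least 2-fold apart and a median of 0.088. Cd81, a tetraspanin gene, had 990 units in Runx2-deficient cells and 465 in wild-type cells, a 2.13-fold higher signal. Marchf1, encoding the ubiquitin ligase that sends class II molecules to lysosomes, had 274 units in Runx2-deficient cells and 404 in wild-type cells, a difference of -0.56. Cd83, whose product opposes that ligase, differed by 0.65 at levels below the filter on both arrays. Over all 6 role groups, 55 of the 58 listed class II pathway genes were measured, 7 of them below the filter on both arrays. At least 2-fold lower were 2, H2-Ab1 and Ctse, where 0.647% of all named genes were. At least 2-fold higher were 2, H2-Eb2 and Cd81, where 0.436% of all named genes were. The 46 that are not among the 9 had a median of -0.018, with 26 below 0.

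Within the class II region of chromosome 17, lower and higher genes lay side by side. The RefSeq annotation places 16 genes between H2-Oa and H2-Ea, of which 13 were measured, 6 of them members. H2-Ob, at 0.79, and H2-Ab1, at -1.01, were consecutive among the measured genes, with 1 lncRNA gene that was not measured between them. H2-Eb1, at -0.55, was followed by H2-Eb2, at 1.26. Among the class I genes interspersed there, Psmb9, Tap1 and Psmb8, for immunoproteasome subunits and a peptide transporter chain, differed by 0.012, 0.12 and -0.16, and Tap2, for the other transporter chain, by -0.47. Brd2, a chromatin reader gene between H2-Oa and H2-DMa, differed by 0.11.

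**Figure D3:**
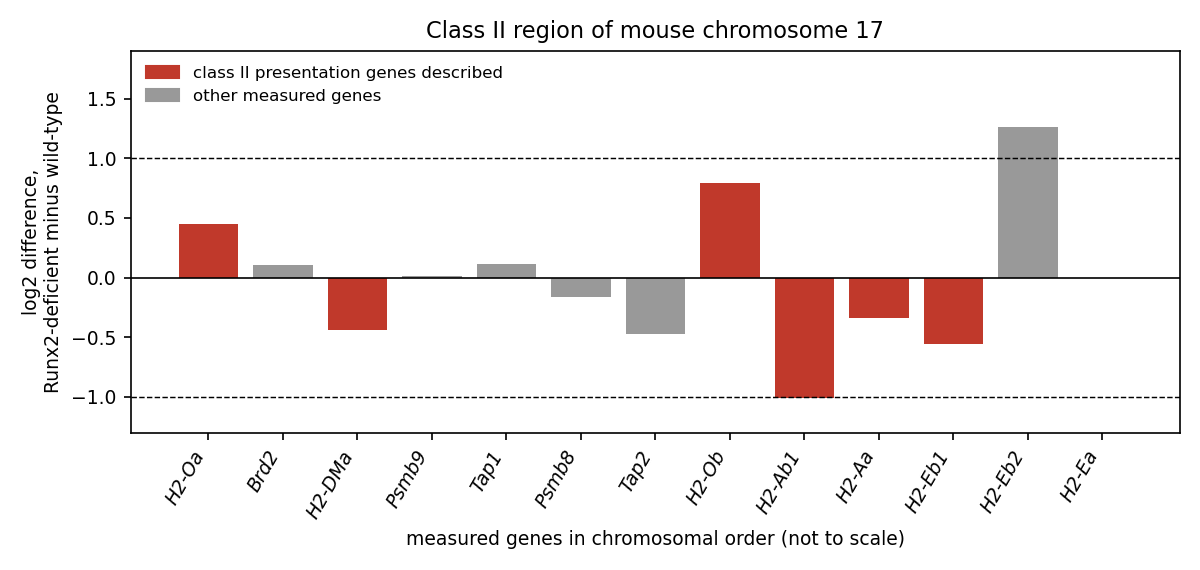
Log2 difference, Runx2-deficient minus wild-type (vertical axis), of the 13 measured genes of the class II region in chromosomal order, not to scale, with class II presentation genes in red, other genes in grey and dashed lines at 2-fold. H2-Ob at 0.79 stands beside H2-Ab1 at -1.01, and H2-Eb1 at -0.55 beside H2-Eb2 at 1.26.

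A list of 14 genes of the class I pathway, which presents peptides from the cytosol and nucleus, was set beside the class II genes. Of these, 12 were measured, and the class I heavy chain genes H2-K1 and H2-D1 were not. The measured genes held 6 below 0 and 6 above 0, 0 were 1.5-fold apart, and their median was -0.017. B2m, the light chain gene of class I, had 12257 units in Runx2-deficient cells and 11756 in wild-type cells. Tapbp, encoding the peptide editor tapasin, differed by -0.43. No test of a difference between the 2 pathways is possible with 1 array per genotype.

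Other cells that carry class II molecules could be present in a sort, and the genes listed for them did not all move one way. The arrays cannot tell whether a listed gene was expressed by the pDCs themselves or by other cells. The sums and gaps below are therefore not levels of other cells. Of 13 measured B cell genes, 9 were below 0 and the sum was 9942 units on the Runx2-deficient array and 7370 on the wild-type array, with a median difference of -0.18. Most of the gap between the sums was Fcrla, at 5413 units in Runx2-deficient cells and 3014 in wild-type cells, and without it they were 4530 on the Runx2-deficient and 4356 on the wild-type array. The receptor gene Cd22 was 2.94-fold higher and the kinase gene Blk 2.85-fold lower. The B cell genes Pax5, Ebf1 and Ms4a1 did not reach the filter level on either array, and Cd79a, a B cell receptor gene, had 267 units in Runx2-deficient cells and 398 in wild-type cells. Of 14 conventional dendritic cell genes, 8 were below 0, and the sum was 21620 units on the Runx2-deficient array and 23103 on the wild-type array. Zbtb46 and Xcr1, which mark conventional dendritic cells, were below the filter on both arrays. Itgax, encoding CD11c, had 379 units in Runx2-deficient cells and 2047 in wild-type cells. That gap in units was larger than the gap between the sums of the whole list. Cadm1 and Naaa differed by -1.09 and -0.87, while the brighter Clec9a, Cd209a and Flt3 differed by 0.17, 0.098 and 0.24. Of 12 monocyte and macrophage genes, 6 were below 0, and the sum was 6930 units on the Runx2-deficient array and 10285 on the wild-type array. The gene with the largest gap in units was Cd68, at 4252 in Runx2-deficient cells and 5626 in wild-type cells. Lyz2, a lysozyme gene, and Ccr2, a chemokine receptor gene, were at differences of -1.59 and -2.23, and Fn1 was at -0.88. The complement gene C1qb and the growth factor receptor gene Csf1r were at 0.89 and 0.64. Adgre1, Cd14, Fcgr1 and C1qa did not reach the filter level on either array. The part of these cells in the class II differences was not tested.

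**Figure D4:**
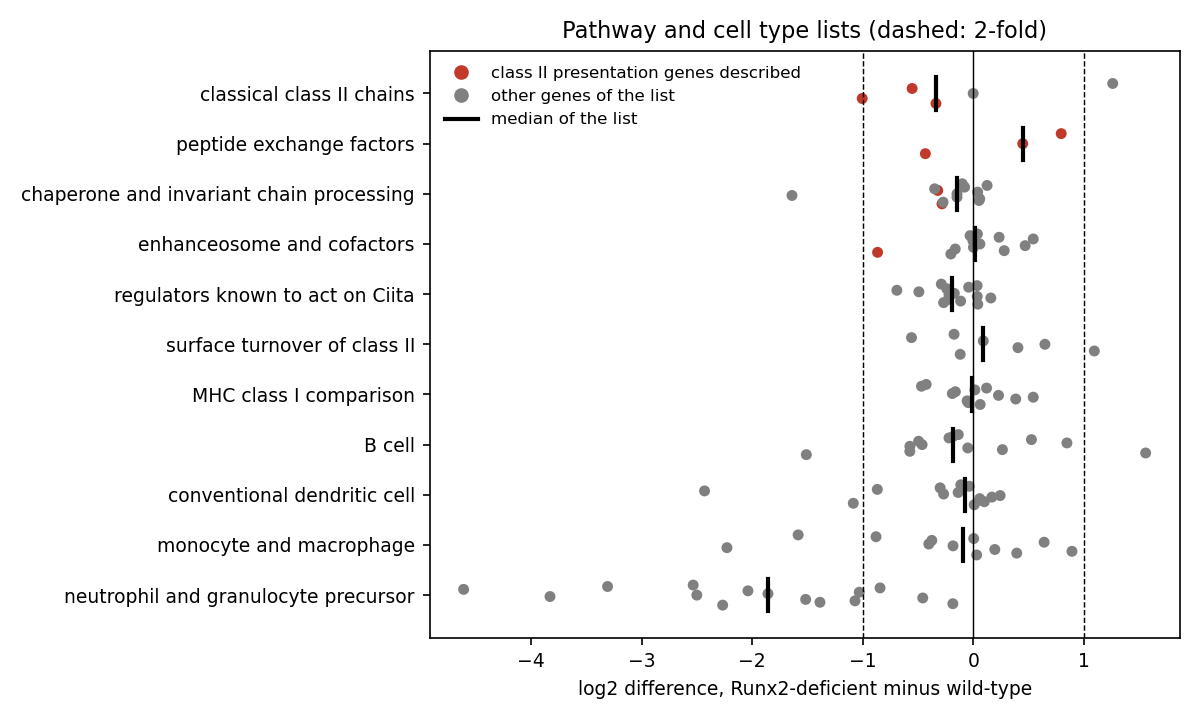
Log2 difference, Runx2-deficient minus wild-type (horizontal axis), of each measured gene (points) of 7 pathway lists and 4 cell type marker lists (rows), with the 9 class II presentation genes in red, each list's median as a black bar and dashed lines at 2-fold. The neutrophil list has the median furthest from 0, at -1.86, and the classical chain list lies at -0.34.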

How the data were processed

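The deposited table holds 1 linear intensity value per probe set and array, from 15.3 to 20364, over 35556 probe sets; per the submitters' processing notes, the authors made them with RMA (background correction, quantile normalisation and probe summary). The software, its version and the annotation it used are not stated. Column medians were 181.7 (Runx2-deficient) and 182.9 (wild-type). There is no detection call, and the number of arrays limits the precision.

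Each difference is the log2 Runx2-deficient intensity minus the log2 wild-type intensity. Probe sets with exactly 1 symbol in the platform annotation (21789; 1621 had several, 12146 none) were named; 21698 matched RefSeq by gene identifier. The brightest probe set stood for a gene with several. Differences of 2-fold, and of 1.5-fold, were counted without a test. The 9 genes, the gene lists and the marker lists were chosen with earlier results of these data known. The text names all 9 genes and every other measured chain and exchange gene. In the other pathway lists it names genes 1.5-fold apart and up to 3 with the largest difference; other genes named (partners of CIITA including Creb1, Ctsl, Irf8, Tcf4, B2m, Gapt, neighbours in the class II region, marker genes of pDCs and other cells) were chosen after their values were seen. The scripts were tested on simulated data. Alternatives were median centring, quantile normalisation, lowess correction (span 0.3), the mean of probe sets, 32 intensity units added, a 1.5-fold threshold and no brightness filter; marker sums without 1 gene were added after seeing the data. The tools were matplotlib 3.10.9, statsmodels 0.14.6, pandas 2.3.3 and numpy 2.4.6 under Python 3.11.15.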

Additional observations from a re-analysis of the deposited data

How the results depend on the processing

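The 9 differences had the same sign in all 45 recomputed values. Median centring, quantile normalisation and lowess correction could have changed a sign and did not. The mean of probe sets and 32 added intensity units could not have changed one. Each of the 9 has 1 probe set, so that mean repeats the reported value, and units added to both arrays cannot reverse a difference. Over all these settings the median of the 9 ran from -0.34 to -0.26. The 2-fold count did not hold as well. The number of members at least 2-fold lower was 0, and that of genes of the wider class II list past the filter 1, under median centring, under quantile normalisation, under lowess correction and with 32 units added, against 1 and 2 as reported, because H2-Ab1 lay between -1.01 and -0.93. At 1.5-fold, 2 members were lower and 1 higher, 4 genes of the wider list past the filter were lower and 3 higher, and 3.86% and 3.02% of filtered genes were lower and higher. Without the brightness filter, 0.647% of named genes were at least 2-fold lower and 0.436% higher. With 32 units added, the median was -1.54 for the neutrophil list and -2.31 for the Y-linked list, as the addition by its construction shrinks dim values. No paired analysis was possible because each genotype has 1 array. For the same reason no array could be left out, and signal over background cannot be judged per gene.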
